A study of Homo sapiens with 6 samples.

Results

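The genes described here encode the nuclear pore complex, the nuclear lamina and the receptors that carry cargo through the pore. They were taken from the table of intensities by symbol: NUP followed by a number, KPNA1 to KPNA7, the lamins LMNA, LMNB1 and LMNB2, and KPNB1, TNPO1, XPO1, RANBP2, RAN, RCC1, TPR, NDC1, BANF1, EMD, TMPO and LBR. This rule found 40 of the 37879 rows, each row being 1 gene. KPNA7 had no row, and the pore membrane protein NDC1 was listed under its older symbol TMEM48, which the rule does not take.

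HEK293T is a human embryonic kidney line that carries the SV40 large T antigen. Control cells received the empty vector, and Stau1 cells received a plasmid coding for Stau155-FLAG, the FLAG-tagged 55-kDa isoform of the RNA-binding protein Staufen1. Both groups were arrested in prometaphase with nocodazole, a drug that depolymerizes microtubules (50 ng/ml, 15 h per the labels, while the methods state more hours), and total RNA was hybridized to Illumina HumanWG-6 v3 BeadChips (3 arrays per group). The comparison asks whether the transcript levels of arrested cells differ when Staufen1 is also made from a plasmid. As a model, the Stau1 group is a transfected population in which a Rous sarcoma virus promoter drives the tagged protein. Nothing in the labels says that the 3 samples of a group came from separate cultures, so the p-values measure only the spread between these samples, which may be technical. In such bulk samples, fewer cells of a kind and less RNA per cell cannot be told apart.

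The nuclear pore complex is a ring-shaped channel through the nuclear envelope, built of outer and inner rings, a central channel lined with phenylalanine-glycine repeats, filaments on the cytoplasmic face and a basket on the nuclear face. Importins bind cargo in the cytoplasm and release it in the nucleus when they meet Ran carrying GTP, while exportins need that form of Ran to hold their cargo. In prometaphase the envelope breaks down, the lamins depolymerize, and the pores come apart into subcomplexes, some of which move to kinetochores. These events act on proteins, and the arrays measured only the transcripts.

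The arrays were alike in overall signal. Median intensity lay between 83.0 and 102 (arbitrary units), between 12730 and 13469 rows were detected per array at p under 0.05, and the correlation of log2 values between any pair of arrays lay between 0.987 and 0.996. All 6 mitotic markers (CCNB1, CDC20, PLK1, AURKA, TOP2A and BUB1) were detected on all 6 arrays. TOP2A, the DNA topoisomerase of dividing cells, had a difference of -0.41 (95% interval -0.72 to -0.09; limma adjusted p 0.999), and the other 5 had differences from -0.10 to 0.08. Of 5 markers of the line, NEFL, NEFM and INA were detected on every array, LHX1 on 4 and PAX2 on 1. Of 5 fibroblast markers, COL1A1 was detected on all arrays and the other 4 on none, and of 5 markers of intestinal epithelium, CDX2 was detected on all arrays and the other 4 on none. The intensities summed over these lists overlapped between the groups: from 430 to 470 in control and from 400 to 490 in Stau1 for fibroblasts, and 1048 to 1445 and 1043 to 1353 for intestinal epithelium. Their part in the results below was not tested.

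STAU1, the gene carried by the plasmid, had log2 intensities of 11.19, 11.38 and 11.36 in control and 11.39, 11.51 and 11.47 in Stau1. The Stau1 arrays lay above the control arrays with a small gap. The difference was 0.15 ± 0.09 (SE), with a limma adjusted p of 0.999 and an exact two-sided permutation p of 0.1, the smallest that 3 arrays against 3 can give. Where the STAU1 probes lie was not given in the sources used here, so this row may not read the plasmid's transcript and does not check the labels.

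Of the 40 genes, 37 were detected on all 6 arrays and 38 on at least 3, the minimum for a test. TPR was detected on 4 arrays. TMPO, which encodes the lamin-binding LAP2 proteins, was detected on 2 arrays and NUP210L, a relative of the pore membrane glycoprotein NUP210, on none, with detection p-values from 0.488 to 0.865. NUP210L was therefore at the level of the negative control beads. TMPO had intensities from 252 to 415, above the array backgrounds of 74.6 to 92.7, and its detection p, which combines several probes, ranged from 0.0231 to 0.122. Both were left out of the comparison.

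The RefSeq promoter windows (GRCh38.p14, from 250 bases before to 50 after each listed start) gave 50 windows for 36 of the 40 genes. Some genes have several windows, and some of these overlap. Each motif was searched on both strands. CCAAT was in 24 windows (48%, against 34.6% of all 35116 windows), the cell cycle homology region (CHR; TTTGAA or TTCGAA) in 12 (24% against 16.4%), and the ETS motif CCGGAAG in 11 (22% against 10.3%), or in 5 (10% against 4.14%) when a T had to follow it. The GC box GGGCGG was in 26 (52% against 45%) and the TATA box TATAAA in 2 (4% against 11.5%). The median window held 25.5 CpG dinucleotides, against 14 over all windows. These matches describe letters only. The 150 bases before the start are shown for LMNB2 and NUP62, the genes with the lowest unadjusted p and with separated groups, and for KPNA2 and NUP37, which carry CCAAT and CHR letters close together. They lie at chr19:2456960-2457109 (minus strand), chr19:49929505-49929654 (minus), chr17:68035585-68035734 (plus) and chr12:102120115-102120264 (minus), and capitals mark CCAAT, CHR and ETS letters on either strand (CHR appears as TTCAAA and ETS also as CTTCCGG).
LMNB2: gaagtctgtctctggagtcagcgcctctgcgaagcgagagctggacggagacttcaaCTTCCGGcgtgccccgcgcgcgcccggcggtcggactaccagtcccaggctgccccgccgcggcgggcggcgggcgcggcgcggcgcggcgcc
NUP62: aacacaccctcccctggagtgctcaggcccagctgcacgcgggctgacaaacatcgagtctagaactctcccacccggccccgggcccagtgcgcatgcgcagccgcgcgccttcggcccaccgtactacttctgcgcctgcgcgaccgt
KPNA2: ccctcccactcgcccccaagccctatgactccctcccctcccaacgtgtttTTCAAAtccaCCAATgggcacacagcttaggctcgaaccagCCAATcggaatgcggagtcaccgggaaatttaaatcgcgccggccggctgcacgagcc
NUP37: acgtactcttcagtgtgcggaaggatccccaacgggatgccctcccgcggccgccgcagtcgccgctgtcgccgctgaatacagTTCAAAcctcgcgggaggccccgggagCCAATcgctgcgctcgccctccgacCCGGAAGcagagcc
LMNB2 shows an ETS motif, NUP62 none of the marked motifs, KPNA2 a CHR followed by 2 CCAAT boxes, and NUP37 a CHR followed by 1 CCAAT box and an ETS motif.

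No gene of the pore, the lamina or the import machinery passed the test between the groups. All 38 tested genes had a limma adjusted p of 0.999, and 0 of them were called, as were 0% of the 13285 rows tested. The differences were small: 17 genes were higher and 21 lower in Stau1, with a median difference of -0.01 on the log2 scale (all rows, -0.00), and they ran from -0.22 (LBR) to 0.25 (LMNB2). With median scaling in place of quantile normalization, 30 of the 38 genes and 69.4% of all tested rows (49.4% otherwise) were higher. So the split by direction depends on the scaling. Median scaling aligned the array medians of all 37879 rows, of which the filter kept 35.1%. The median size of the difference was 0.06, against 0.09 over all rows. For 36 of the 38 genes the 95% interval lay wholly within a 1.5-fold change in either direction, as it did for 86.9% of all rows. The exceptions were LBR (-0.75 to 0.31) and KPNA5 (-0.25 to 0.66). All 38 intervals lay within 2-fold.

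**Figure D1:**
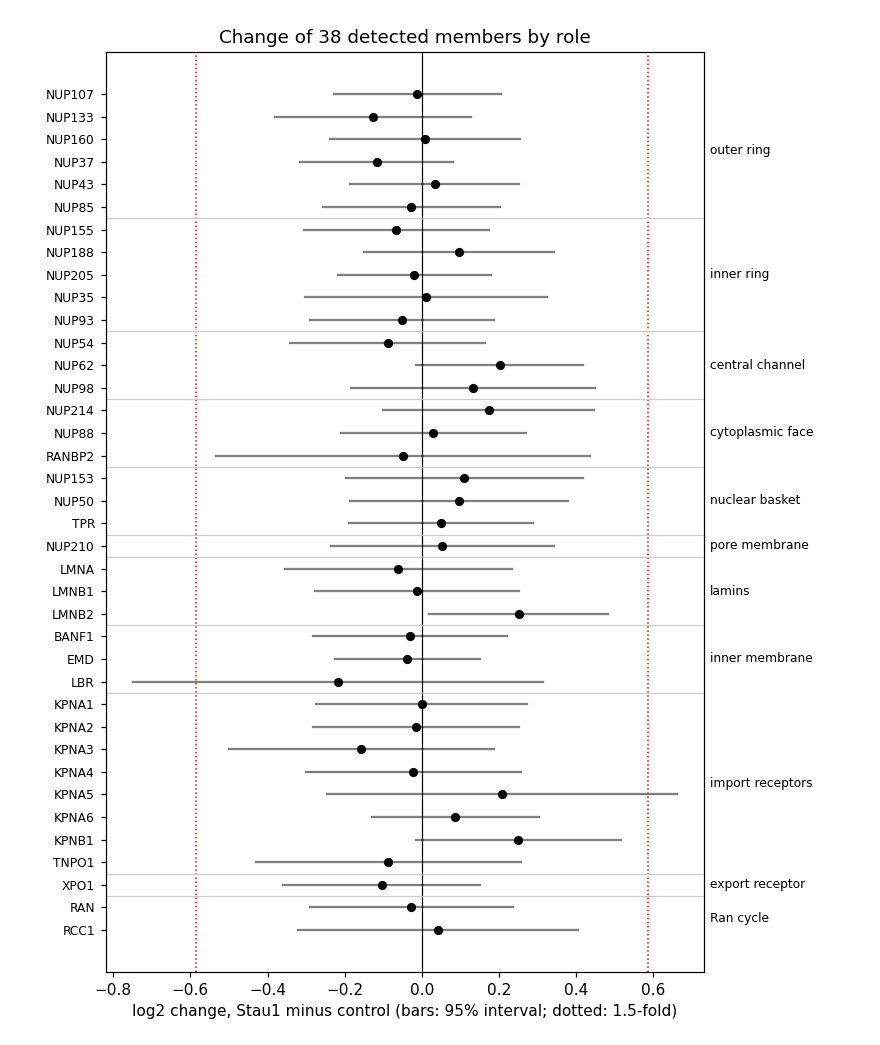
Difference in log2 intensity, Stau1 minus control, for the 38 tested genes grouped by role (points, fitted difference; bars, 95% interval; dotted lines, 1.5-fold). Every interval but that of LMNB2 includes 0, and those of LBR and KPNA5 cross a dotted line.

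At an unadjusted p under 0.05, 1 gene was higher in Stau1 (LMNB2) and 0 were lower, where 2.4% of all rows were higher and 1.32% lower. In 1 gene (NUP62) the Stau1 arrays all lay above the control arrays and in 0 they all lay below, against 4.51% and 3.4% of all rows. The counts of these genes were near the shares over all rows or below them. The methods' t-test gave 0 genes at an unadjusted p under 0.05 (464 of all rows) and 0 after Benjamini-Hochberg adjustment.

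The lamins form the filament meshwork under the inner nuclear membrane. LMNB2, which encodes lamin B2, had log2 intensities of 12.01, 11.58 and 11.83 in control and 12.06, 11.99 and 12.12 in Stau1. Control replicate 1 lay at the level of the Stau1 arrays and the other controls lay below them. The difference was 0.25 ± 0.11 (95% interval 0.02 to 0.48), with a limma unadjusted p of 0.0361 and an adjusted p of 0.999. LMNB1, which encodes lamin B1, was at 10.14 ± 0.18 in control and 10.13 ± 0.14 in Stau1 (mean ± SD, n = 3, as for all such values). LMNA, which encodes lamins A and C, was at 8.80 ± 0.15 and 8.74 ± 0.17. The differences of LMNB1 (-0.01) and LMNA (-0.06) were smaller than the spread of either group, so among the lamins only LMNB2 differed by more than its replicate SDs (0.22 and 0.07).

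The tested inner membrane and chromatin tether genes (BANF1, EMD and LBR) had differences of -0.03, -0.04 and -0.22, of which BANF1 and EMD turned positive with median scaling. LBR, the lamin B receptor, was the gene with the widest spread: 9.14, 9.06 and 8.21 in control, and 8.08, 8.90 and 8.77 in Stau1. One array of each group stood low, control replicate 3 and Stau1 replicate 1, and the groups overlapped. Its SDs were 0.52 and 0.44, and its difference of -0.22 ± 0.25 (SE) was smaller than either. BANF1 encodes the barrier-to-autointegration factor that cross-links chromatin at the re-forming envelope, and was at 12.31 ± 0.24 and 12.28 ± 0.14. EMD, which encodes emerin, was at 12.97 ± 0.14 and 12.93 ± 0.05.

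The outer ring (Y complex) is the pore scaffold that also coats kinetochores in mitosis. Of its 6 members, 2 were higher and 4 lower, with a median difference of -0.02, where NUP107 and NUP85 turned positive with median scaling, NUP160 turned negative with cyclic loess, and the others kept their direction under both. NUP133 had the most negative value, -0.13 ± 0.12 (SE), with 11.16, 11.33 and 10.98 in control and 10.87, 11.23 and 11.00 in Stau1. NUP37 followed, with 12.89, 12.81 and 12.62 in control, 12.56, 12.74 and 12.67 in Stau1 and a difference of -0.12 ± 0.09. In both genes the ranges of the groups overlapped. NUP43 is on the study's list of transcripts found in Stau1 complexes, which came from cells transfected in the same way and is no independent evidence. NUP43 had 11.13, 11.24 and 11.37 in control and 11.42, 11.20 and 11.21 in Stau1. Its difference was 0.03 ± 0.10, below both SDs (0.12 each), with an interval of -0.19 to 0.25.

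The inner ring holds the scaffold to the pore membrane. Its 5 members ranged from -0.07 to 0.10, with 2 higher and 3 lower, and all 5 were higher with median scaling. NUP155, which contacts the membrane, was at 9.85 ± 0.13 in control and 9.78 ± 0.06 in Stau1. NUP188, a large scaffold protein, was at 9.43 ± 0.13 and 9.52 ± 0.04.

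The central channel proteins carry the repeats that bind transport receptors. NUP62 had log2 intensities of 11.00, 11.22 and 11.31 in control and 11.34, 11.36 and 11.44 in Stau1, which was the one case of separated groups. The gap between the highest control array and the lowest Stau1 array was small beside the range of the controls. The difference was 0.20 ± 0.10 (95% interval -0.01 to 0.42), with a limma unadjusted p of 0.0650 and an adjusted p of 0.999. NUP98, whose transcript also encodes the scaffold protein NUP96, was at 6.66 ± 0.12 in control and 6.80 ± 0.05 in Stau1. The class ranged from -0.09 to 0.20.

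On the cytoplasmic face, NUP214, which docks export complexes, had 8.94, 8.79 and 9.10 in control and 9.03, 9.08 and 9.24 in Stau1. The groups overlapped through control replicate 3, and the difference was 0.17 ± 0.13 (SE). RANBP2, the SUMO ligase of the cytoplasmic filaments, had 5.88, 6.72 and 6.57 in control and 6.15, 6.73 and 6.15 in Stau1. Its arrays spread over more than its difference of -0.05 ± 0.23 (SE). Its intensities of 116 to 191 lay near the array backgrounds of 74.6 to 92.7, and without background correction the SE was 0.12. RANBP2 has near-identical copies in the genome, the RGPD genes, and probe sequences were not used here, so its row may also read their transcripts.

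The 3 nuclear basket genes were all higher in Stau1, by 0.05 to 0.11, also with median scaling and cyclic loess, and none of these differences passed the test. NUP153 turned to -0.06 without control replicate 1. NUP153, which anchors the basket, had 9.58, 10.02 and 10.13 in control and 9.87, 10.13 and 10.06 in Stau1. NUP50, a cofactor of importin alpha, was at 8.19 ± 0.11 and 8.29 ± 0.04. TPR, the coiled-coil filament of the basket, was at 9.74 ± 0.13 and 9.79 ± 0.05. For each of the 3 the groups overlapped. The pore membrane glycoprotein NUP210 was at 9.21 ± 0.19 and 9.27 ± 0.15.

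Among the 8 import receptors, 3 were higher and 5 lower, with differences from -0.16 to 0.25. KPNA1, KPNA2 and KPNA4 turned positive with median scaling, and KPNA1 also with cyclic loess. KPNB1, importin beta, had 12.52, 12.96 and 13.09 in control and 13.20, 13.07 and 13.06 in Stau1. Control replicate 1 stood below all others, while control replicate 3 lay within the Stau1 range. The difference was 0.25 ± 0.12 (95% interval -0.01 to 0.51), with a limma unadjusted p of 0.0619 and an adjusted p of 0.999. KPNA5, an importin alpha, had 7.04, 7.61 and 8.02 in control and 7.62, 7.85 and 7.81 in Stau1. The control arrays alone spanned 0.98, and the difference of 0.21 ± 0.21 was no larger than its error. KPNA2, the importin alpha of proliferating cells, was at 10.31 ± 0.16 and 10.30 ± 0.19.

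XPO1, the exportin CRM1, had 11.30, 11.65 and 11.69 in control and 11.34, 11.62 and 11.37 in Stau1, a difference of -0.10 ± 0.12 (SE). Control replicate 1 was the lowest array, and without it the difference was -0.23 (limma unadjusted p 0.0363, adjusted p 0.971). The GTPase RAN was at 10.62 ± 0.09 in control and 10.59 ± 0.24 in Stau1. RCC1, the chromatin-bound exchange factor that loads Ran with GTP, was at 7.08 ± 0.28 and 7.12 ± 0.09. The difference was below the larger SD in all 3 genes.

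**Figure D2:**
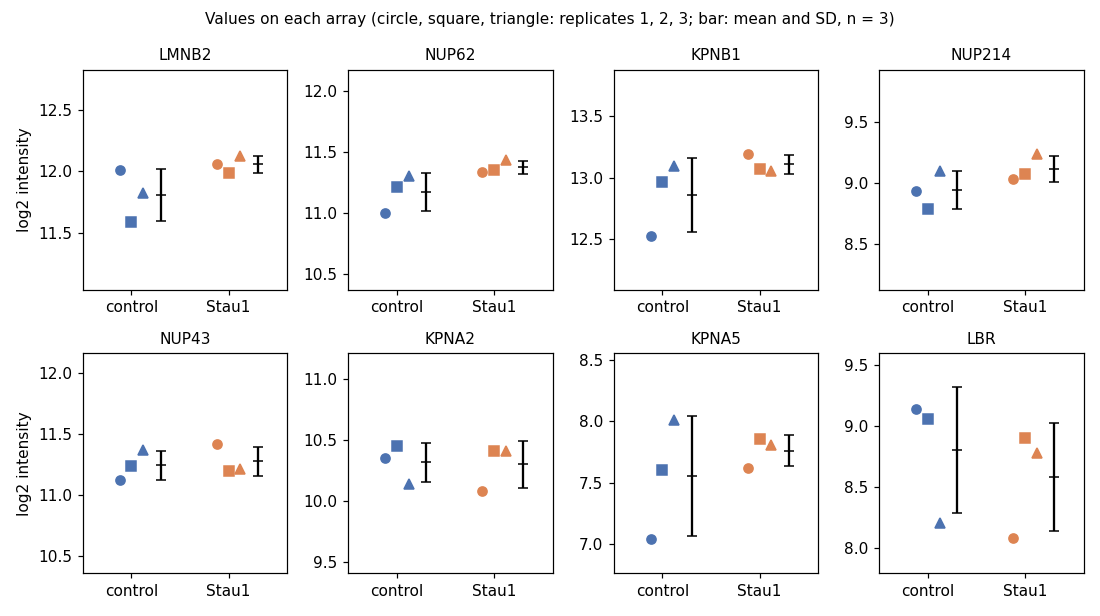
Log2 intensity of 8 genes on each array (circle, square and triangle, replicates 1, 2 and 3; bars, mean and SD, n = 3), with the same height of axis in each panel. Only NUP62 has separated groups. Control replicate 1 is the lowest array for NUP62, KPNB1, NUP43 and KPNA5, and control replicate 3 and Stau1 replicate 1 are low for LBR.

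The spread between replicates was as wide for these genes as for the table as a whole. The median SD was 0.17 in control and 0.11 in Stau1 (all rows, 0.17 and 0.12). The control SD was the larger for 29 of the 38 genes, and for 68.4% of all rows. The range over the arrays of a group was above 0.5 for 7 genes in control and for 4 in Stau1. The error over beads was smaller, with a median per gene from 2.07% (EMD) to 5.43% (NUP98) of the intensity on 21 to 71 beads.

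Taken array by array, the median deviation of the 38 genes from each gene's own mean differed between arrays. It was -0.07 on control replicate 1 and -0.08 on Stau1 replicate 1. On replicate 2 it was 0.05 in control and 0.07 in Stau1, and on replicate 3 it was 0.03 in both. These medians were alike between samples with the same number, which was not tested. The median over all rows was within 0.01 of 0 on every array. The pooled SD of these array medians within groups was 0.07. It was computed from the same medians, so it is no separate measure of spread to judge them by. Control replicate 1 held the lowest value of 15 genes (39.5%, against 25.5% of all rows) and Stau1 replicate 1 that of 10 (26.3% against 16.5%). Control replicate 1 also held the highest value of 10 genes (26.3%, against 26.9% of all rows), the most of any array. Stau1 replicates 2 and 3 held the lowest value of 1 and 0 genes (2.63% and 0%, against 14.1% and 9.21% of all rows). Stau1 replicate 1 held the highest value of 2 genes (5.26% against 15%). These shares were not tested.

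**Figure D3:**
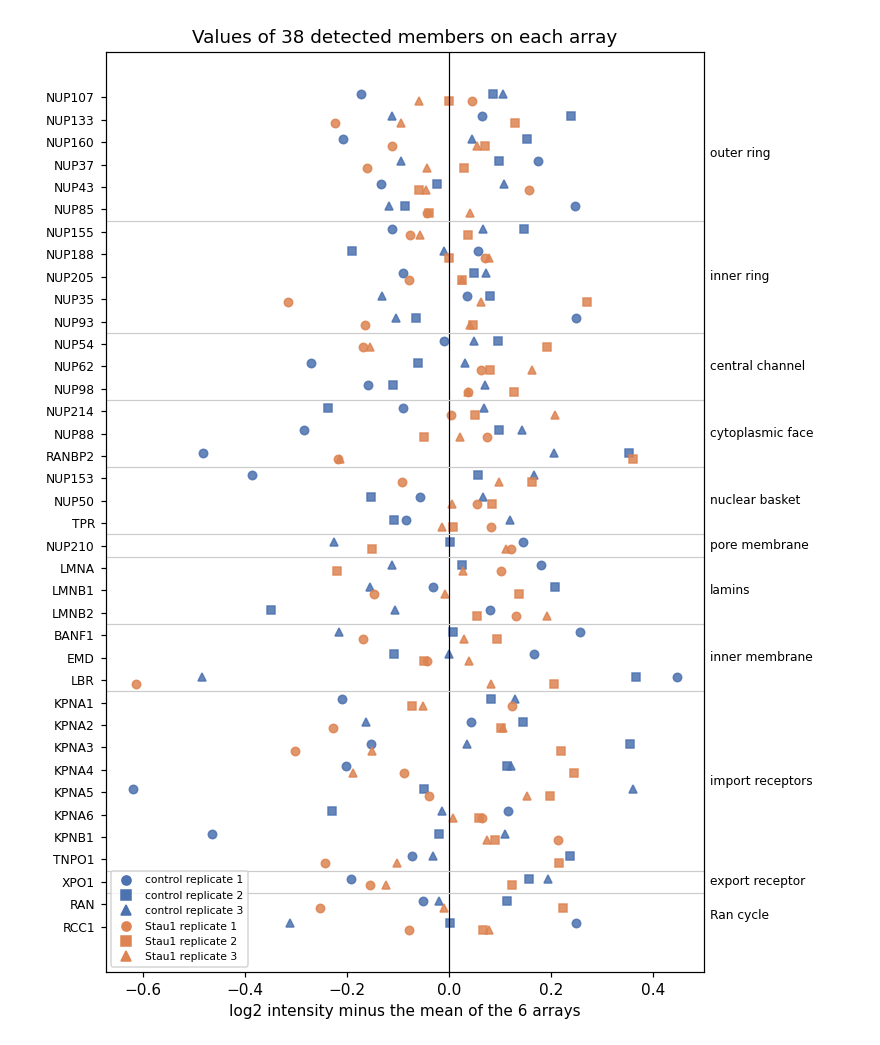
Deviation of each of the 38 tested genes from its own mean over the 6 arrays (log2), by array (blue, control; orange, Stau1; circle, square and triangle, replicates 1, 2 and 3). The colours intermix for nearly every gene, and most orange circles (Stau1 replicate 1) lie left of 0.

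**Figure D4:**
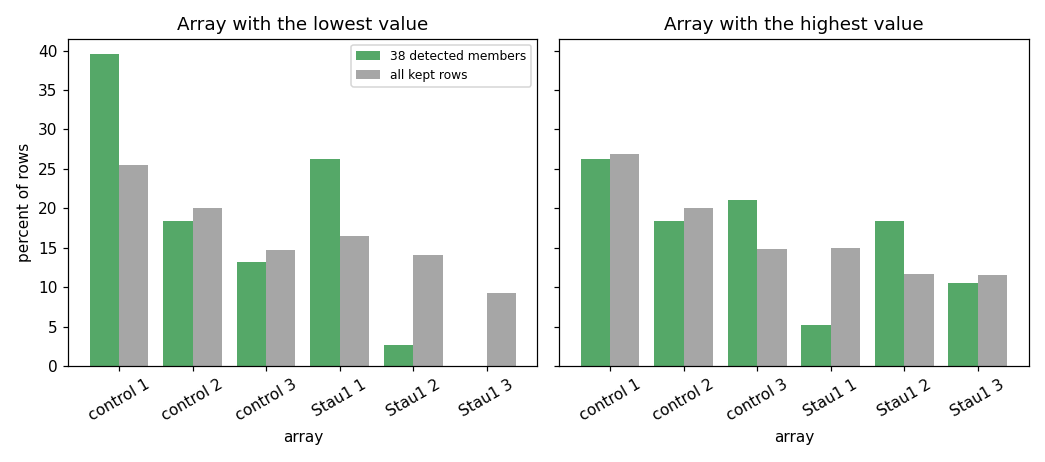
Percent of the 38 tested genes (green) and of all 13285 tested rows (grey) whose lowest value (left) or highest value (right) lies on each array. Control replicate 1 holds the lowest value for 39.5% and the highest for 26.3% of the genes (25.5% and 26.9% of all rows). Stau1 replicate 3 holds the lowest for 0 genes (9.21% of all rows).

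Most differences changed direction in at least 1 of the 6 omissions of an array, although a single omission turned only 4 to 11 of them. In 14 of the 38 (36.8%) the difference kept its sign whichever of the 6 arrays was left out, against 49.1% of all rows. LMNB2, NUP62 and KPNB1 were among them, with differences of 0.14 to 0.35, 0.12 to 0.27 and 0.08 to 0.37. So were XPO1 (-0.23 to -0.03), NUP133 (-0.22 to -0.04) and NUP37 (-0.19 to -0.06). Without control replicate 3, 39 rows of the table passed the limma test (0.294%) and 0 of these genes did. The lowest adjusted p in limma was then 0.229, for KPNB1. An unadjusted limma p under 0.05 was found for 6 genes, beside 1690 of all 13285 rows. The 6 were KPNA5, KPNB1, LMNB2 and NUP62 (higher) and LBR and NUP37 (lower). The number of genes with separated groups was then 9. Without control replicate 1 it was 10, with 5 in each direction. LMNB2 and XPO1 then had an unadjusted limma p under 0.05, beside 550 of all rows. Fewer arrays separate more easily: the shares over all rows were then 15.2% higher and 13.9% lower without control replicate 3, and 9.64% and 8.48% without control replicate 1.

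The wider transport and envelope machinery was read from a second list of 44 genes, of which 39 were in the table and 36 were tested. Of these, 21 were higher and 15 lower, with a median difference of 0.03, and 0 passed the limma test, beside 0% of all rows. RANGAP1, the activator of Ran's GTPase on the cytoplasmic side, was the only gene with an unadjusted p under 0.05. It was also the only one with separated groups. Over all rows, 2.4% were higher and 1.32% lower at that p, and 4.51% and 3.4% had separated groups. RANGAP1 had 12.51, 12.28 and 12.52 in control and 12.75, 12.58 and 12.69 in Stau1. The difference was 0.24 ± 0.09 (95% interval 0.04 to 0.43), with a limma unadjusted p of 0.0220 and an adjusted p of 0.999. TMEM48 (NDC1) was at 9.75 ± 0.24 and 9.80 ± 0.15. NUPL1, RAE1 and SYNE1 were detected on too few arrays to be tested. RAE1, detected on 1 array, had intensities from 1060 to 1764, well above the array backgrounds of 74.6 to 92.7. Its detection p, which combines several probes, ranged from 0.0064 to 0.158.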

How the data were processed

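Total RNA of 6 samples was compared, grouped by the transfection in the labels (3 control, 3 Stau1). Per the file headers, the authors deposited a gene profile with no normalization: a mean intensity per gene and array, a detection p-value against negative control beads, the standard error over beads as a signal in intensity units, and the bead count. Detection p-values of several-probe rows are combined values. The genes and lists were chosen with earlier results of these data known.

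From the deposited intensities, log2 values were computed with limma 3.58.1 in R 4.3.3 (normexp, offset 16, background inferred from 30932 rows that look like 1 probe, then quantile normalization). The filter kept 13285 rows (35.1%), those detected on 3 or more arrays at a detection p below 0.05. These were fitted with lmFit and trended eBayes, and p-values were adjusted over them (Benjamini-Hochberg, 0.05). The script was tested on simulated data. A t-test, which the study's methods name for its immunoprecipitated RNA, was also run, here two-sided with equal variances. Alternatives were other backgrounds, offsets, normalizations, filters and variance models, a block by replicate number, and the omission of each array in turn. Genes given with values were NUP43, the 2 with the largest difference per role, those with separated groups and a set named for its roles. RefSeq tables served for promoters, and the ETS letters were shortened by 1 base after a first count. The number of arrays limits the precision, and intensities were not compared between genes. One further marker list is not reported here.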

Additional observations from a re-analysis of the deposited data

How the results depend on the processing

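No gene of the set passed the limma test under any alternative run. With all arrays the lowest adjusted p of a named gene was 0.208 (LMNB2, array weights), and with an array left out it was 0.229 (KPNB1). Median scaling aligned the array medians of all 37879 rows before the filter. It moved the median of the 13285 tested rows to 0.0679 and that of the set to 0.0768. With it, 30 of 38 genes and 69.4% of tested rows were higher in Stau1, against 17 genes and 49.4% as reported. Among the 25 named genes it turned NUP155 (0.0176), LMNA (0.0361), LMNB1 (0.0736), BANF1 (0.0531), EMD (0.0155), KPNA2 (0.0576) and RAN (0.0536). Those directions depend on the scaling. Array weights turned NUP43 (-0.00493), BANF1 (0.0153), EMD (0.0357) and KPNA2 (0.00192). Separated groups were counted in 2 genes with cyclic loess, in 0 with median scaling and in 1 to 10 with an array left out. With an array left out, 6.59% to 15.2% of all rows were separated with Stau1 higher and 6.07% to 13.9% with Stau1 lower. For cyclic loess and median scaling the share over all rows is not given, so those counts have no background to be read against. Rows called in the whole table numbered 0 to 39 with an array left out (39 without control replicate 3, 0 without any other). Leaving out each array gave NUP43 from -0.0358 to 0.0958, NUP153 from -0.0554 to 0.220, NUP210 from -0.0463 to 0.142, LMNA from -0.133 to 0.0328, LMNB1 from -0.0936 to 0.0875, BANF1 from -0.148 to 0.0895, EMD from -0.101 to 0.0363, LBR from -0.515 to 0.0346, KPNA2 from -0.102 to 0.0946, KPNA5 from -0.0509 to 0.439, RANBP2 from -0.303 to 0.115, RAN from -0.146 to 0.0923, and RCC1 from -0.104 to 0.177. Of 395 values of the 25 named genes under the alternatives, 361 kept their direction and their side of the threshold, and 34 turned. The filters, the fit without a variance trend and the replicate block leave the difference itself unchanged. Under these the direction could not turn, so the share that kept it is no measure of stability. Without a filter 40 genes were tested, and with the strict filter (detection p under 0.01 on all arrays) 32. With the replicate number as a block, 0 genes were called (lowest adjusted p 0.986). LMNB2 (0.0222) and NUP62 (0.0483) then had an unadjusted limma p under 0.05, beside 604 of all rows. The deviations of samples with the same number correlated at 0.02, 0.26 and -0.14, and the numbers were not taken as pairing the samples. The median deviations of the 38 genes were nonetheless alike by number. A slide block was not run, since the table names no slide. The cause of these shifts was not tested.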
